A study of Mus musculus with 6 samples.

Results

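Axon guidance ligands and receptors were taken as all genes of the ephrin, Eph, semaphorin, plexin, Slit, Robo, netrin, netrin-G, Unc5 and Dcc families by gene symbol: 68 of the 47480 genes in the table. They comprised 36 ligands and 32 receptors. RNA sequencing had been performed on VMHpvlm and VMHpvll, neighbouring parts of the ventrolateral ventromedial hypothalamus (VMH), cut by laser capture from frozen coronal brain sections of female mice. All mice carried VgluT2-cre and Ai6, a Cre driver under the control of the gene for the vesicular glutamate transporter Slc17a6 and a reporter of Cre activity. The sources used here give neither the age of the mice nor the number of animals per library. The groups were 3 VMHpvlm libraries and 3 VMHpvll libraries, named F19, F20 and KH_161103 in both regions, and same-named libraries were treated as pairs. Laser capture takes whole tissue, so each library holds RNA of neurons, glia and vessels.

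Ephrins and their Eph receptor tyrosine kinases, semaphorins and their plexin receptors, Slits and their Robo receptors, and netrins with Dcc and Unc5 are the classical signalling systems that attract or repel growing axons. Many of the proteins persist in the adult brain, where Eph receptors, semaphorins and netrin-G proteins act at synapses. Several, such as Robo4, Plxnd1, Unc5b, Ephb4 and Efnb2, are also known for roles in blood vessels.

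Depth was between 7157831 and 11293159 reads per library, recovered from the deposited values. Genes that describe the regions were chosen with earlier results of these data known, so they do not check the dissection. The VMH transcription factor Nr5a1 averaged 308 normalised read counts in VMHpvlm and 31.5 in VMHpvll. The cholecystokinin receptor Cckar averaged 23.1 in VMHpvlm and 411 in VMHpvll. The oestrogen receptor Esr1 averaged 513 in VMHpvlm and 1490 in VMHpvll, the progesterone receptor Pgr 1229 and 3410 in that order, and Gad2, a GABA synthesis gene, 569.8 and 1370. Slc17a6 averaged 4665 in VMHpvlm and 4946 in VMHpvll, without a call. All levels below are normalised read counts, listed in the order F19, F20 and KH_161103, unless they are said to be per kb. Each difference is VMHpvlm minus VMHpvll, with its standard error, after a log2(value + 1) transform, and is positive where VMHpvlm was higher. A gene was called at a Benjamini-Hochberg adjusted p below 0.05 over all genes tested, by limma with the pair as a block.

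Guidance genes divided evenly between the regions. The test covered 64 members, those whose mean count reached 10, and 15 were higher in VMHpvlm (23.4%) and 15 were higher in VMHpvll (23.4%). Over all 14522 genes tested, 10.5% were called higher in VMHpvlm and 9.48% higher in VMHpvll. The members had higher counts than most genes, with a median of 338 against 183. These counts are not corrected for gene length, so they do not rank expression. Among genes with a mean of at least 100, the called share was 57.1% for the 49 members and 25.4% for all 9237 genes. The sign was the same in 3 of 3 pairs for all 30 called members, and the libraries of the regions did not overlap for 29 of them, the exception being Plxnb1. Non-overlap held for 34 of the 64 members (53.1%) and for 28.0% of all genes tested. The median difference of the members was -0.06, against 0.00 for all genes tested, and the median absolute difference was 0.32 against 0.15. The counts of members depended on the method: DESeq2 on the recovered reads called 13 toward VMHpvlm and 6 toward VMHpvll, limma without a trended and robust variance 6 and 3, and limma without the KH_161103 pair 14 and 8. Calls over all genes fell as well, to 648 and 582, 189 and 233, and 935 and 838 in that order, from 1528 and 1377. In these bulk samples, more cells of a type and more RNA per cell cannot be told apart.

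**Figure D1:**
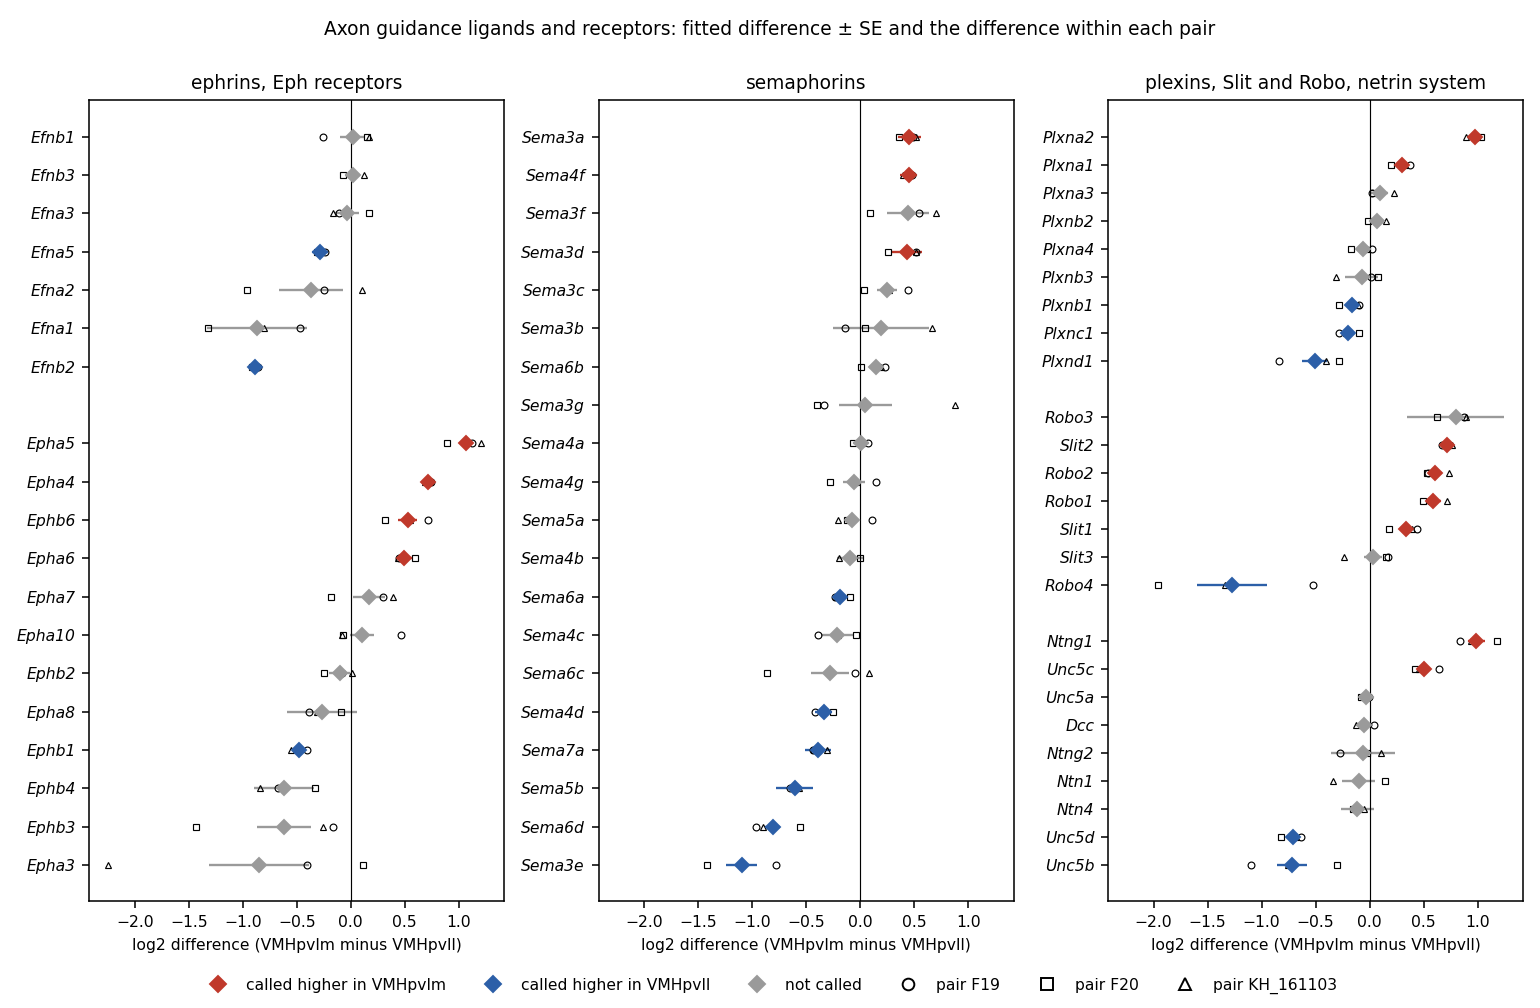
Fitted log2 difference (VMHpvlm minus VMHpvll) of the 64 tested members, with bars for the standard error and open symbols for the difference within each pair. Red diamonds (15 genes) were called higher in VMHpvlm, blue diamonds (15 genes) were called higher in VMHpvll and grey diamonds were not called. Epha5, Ntng1 and Plxna2 lie farthest to the right, and Robo4, Sema3e and Efnb2 farthest to the left among the called genes.

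The 4 largest differences among called members were those of Epha5, Ntng1, Plxna2 and Slit2 toward VMHpvlm, and those of Robo4, Sema3e, Efnb2 and Sema6d toward VMHpvll. Start regions are shown for the called members with the largest differences in each direction that had a mean of at least 100 and 1 start in the RefSeq table. Each window runs from 250 bases before to 50 bases after the RefSeq start of the gene, 5′ to 3′ on the gene's strand, on build GRCm38.p6. The window of Ntng1 lies inside the span that GENCODE M21 gives for the gene (109780040 to 110144011), so the starts of these annotations differ there. Capitals mark CG dinucleotides, the sites of cytosine methylation.
Epha5, chr5:84417333-84417632, minus strand: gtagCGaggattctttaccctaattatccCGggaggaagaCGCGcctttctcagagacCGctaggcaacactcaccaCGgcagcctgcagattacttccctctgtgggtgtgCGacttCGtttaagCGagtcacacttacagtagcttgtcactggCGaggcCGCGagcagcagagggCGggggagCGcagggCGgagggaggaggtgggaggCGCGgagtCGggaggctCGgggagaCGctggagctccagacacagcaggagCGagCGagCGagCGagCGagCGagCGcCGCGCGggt
Ntng1, chr3:110143423-110143722, minus strand: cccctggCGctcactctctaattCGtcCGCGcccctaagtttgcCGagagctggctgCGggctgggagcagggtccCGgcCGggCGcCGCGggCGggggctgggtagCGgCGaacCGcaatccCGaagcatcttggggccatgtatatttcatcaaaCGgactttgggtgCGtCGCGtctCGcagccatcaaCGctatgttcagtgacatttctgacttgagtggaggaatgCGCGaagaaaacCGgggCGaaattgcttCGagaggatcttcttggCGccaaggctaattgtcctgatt
Sema3e, chr5:14025026-14025325, plus strand: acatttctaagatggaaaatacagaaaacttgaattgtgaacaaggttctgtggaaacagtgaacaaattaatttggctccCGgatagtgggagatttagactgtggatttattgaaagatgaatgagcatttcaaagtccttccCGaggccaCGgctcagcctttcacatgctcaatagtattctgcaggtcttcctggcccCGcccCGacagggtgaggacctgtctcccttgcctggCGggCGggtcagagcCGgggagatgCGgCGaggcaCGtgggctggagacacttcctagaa
Efnb2, chr8:8661193-8661492, minus strand: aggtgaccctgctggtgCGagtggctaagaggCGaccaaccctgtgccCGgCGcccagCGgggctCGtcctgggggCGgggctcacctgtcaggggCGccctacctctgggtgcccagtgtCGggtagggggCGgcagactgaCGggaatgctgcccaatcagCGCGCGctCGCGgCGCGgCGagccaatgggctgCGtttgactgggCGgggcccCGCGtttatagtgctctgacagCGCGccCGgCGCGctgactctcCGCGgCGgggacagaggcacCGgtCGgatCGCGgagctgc
The windows of Epha5, Ntng1, Sema3e and Efnb2 held 30, 28, 11 and 35 CG dinucleotides. Over the 74 windows of the 58 members with an entry the median was 19.5, and over the windows of all genes tested it was 20. The median was 17 for members higher in VMHpvlm and 18.5 for members higher in VMHpvll. Because the nuclear receptors Nr5a1 and Esr1 differ between the regions, the windows were also searched on both strands for AGGTCA, the half-site read by many nuclear receptors. AGGTCA was present in 0 of 15 windows of members higher in VMHpvlm, in 3 of 16 windows of members higher in VMHpvll (Plxnd1, Robo4 and Sema4d) and in 12% of the windows of all genes tested. The longer CAAGGTCA, the preferred site of Nr5a1, which contains the half-site, was found in 1 of the 74 windows, that of Sema4b, and in 1.14% of the windows of all genes tested. The perfect palindromic oestrogen response element was found in 0 of the 74 windows and in 0.0151% of those of all genes tested. A match is a match of letters in a short window and does not show binding.

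Of 7 tested EphA receptors 3 were called toward VMHpvlm and 0 toward VMHpvll, and of 7 tested ephrins 0 were called toward VMHpvlm and 2 toward VMHpvll. These were 1 of 4 tested ephrin-A genes and 1 of 3 tested ephrin-B genes. Epha5, a receptor for ephrin-A ligands, lies on chromosome 5 from 84054761 to 84417382 (mm10) and had the largest difference toward VMHpvlm of all members. It had 2589.7, 2443 and 2633 normalised read counts in VMHpvlm, against 1190.5, 1317 and 1144 in VMHpvll. Every VMHpvlm library was above every VMHpvll library, and the difference was 1.07 ± 0.050 (adjusted p = 1.36e-20), a 2.10-fold higher mean. Epha4, which binds both ephrin-A and ephrin-B ligands, had 1253, 1289 and 1218 in VMHpvlm, against 749, 776 and 758 in VMHpvll. Its libraries were tightly grouped within each region and did not overlap (difference 0.72 ± 0.056, adjusted p = 4.22e-14). Epha6, another receptor of the A class, had 494, 555 and 483 in VMHpvlm, against 362, 368 and 356 in VMHpvll, again without overlap (0.49 ± 0.078, adjusted p = 3.21e-06). The exons of Epha6 overlap Gm9017 on the opposite strand over 2.02% of their length. Of the other EphA receptors, Epha7 (0.17), Epha10 (0.10), Epha8 (-0.26) and Epha3 (-0.85) were not called. Epha3 ran from 3.63 to 21.0 over the 6 libraries, with a standard error of 0.46 and differences of -0.41, 0.11 and -2.25 in the 3 pairs. Epha1 and Epha2 were below the level tested, with no library above 13.7.

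EphB receptors went both ways. Ephb6, whose kinase domain is inactive, had 401, 476 and 407 in VMHpvlm, against 244, 383 and 278 in VMHpvll (0.52 ± 0.088, adjusted p = 8.98e-06). The regions did not overlap, although the F20 library of VMHpvll came close to the F19 library of VMHpvlm. Ephb1, a receptor for ephrin-B ligands, had 1049.7, 1102 and 997 in VMHpvlm, against 1392, 1532 and 1461 in VMHpvll. It was the only EphB receptor called toward VMHpvll (-0.48 ± 0.052, adjusted p = 6.11e-10). Ephb3 and Ephb4 also had higher values in all VMHpvll libraries than in any VMHpvlm library, but they were not called (differences -0.62 and -0.62, adjusted p = 0.0713 and 0.123). Their levels did not exceed 65.5, and the differences of Ephb3 in the 3 pairs were uneven, at -0.17, -1.44 and -0.25. Without the F19 pair, the adjusted p of Ephb3 was 0.0371. Ephb2 had 280.4, 233 and 285 in VMHpvlm, against 296, 277 and 283 in VMHpvll, overlapping ranges with no call (adjusted p = 0.517).

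Among the ligands of these receptors, Efnb2, the transmembrane ephrin-B2, had the smallest p. It lies on chromosome 8 from 8617434 to 8661242 (mm10) and had 549.9, 533 and 573 in VMHpvlm, against 998, 1007 and 1054 in VMHpvll. The level in VMHpvll was 1.85-fold that in VMHpvlm (-0.88 ± 0.062, adjusted p = 1.46e-15). The difference was nearly the same in each pair, at -0.86, -0.92 and -0.88. Efna5, a membrane-anchored ligand of EphA receptors, had 414, 386 and 438 in VMHpvlm, against 489, 479.5 and 541 in VMHpvll, a smaller difference without overlap (-0.29 ± 0.076, adjusted p = 0.00439). Without the KH_161103 pair its adjusted p was 0.0764. Efnb3 had 676, 645 and 712 in VMHpvlm, against 676, 679 and 655 in VMHpvll, and was not called (adjusted p = 0.911). Efnb1, Efna3, Efna2 and Efna1 were not called either, with differences of 0.02, -0.03, -0.37 and -0.87, the last at levels of 15.4 or less. Efna4 was below the level tested, with 1 read in 1 library. Summed over family members, EphA counts were between 4652.7 and 4743 in VMHpvlm libraries and between 2634 and 2850.4 in VMHpvll libraries. Summed ephrin counts were between 2015 and 2152 in VMHpvlm libraries and between 2597 and 2687 in VMHpvll libraries, with most of the gap from Efnb2, which averaged 552 in VMHpvlm and 1020 in VMHpvll.

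**Figure D2:**
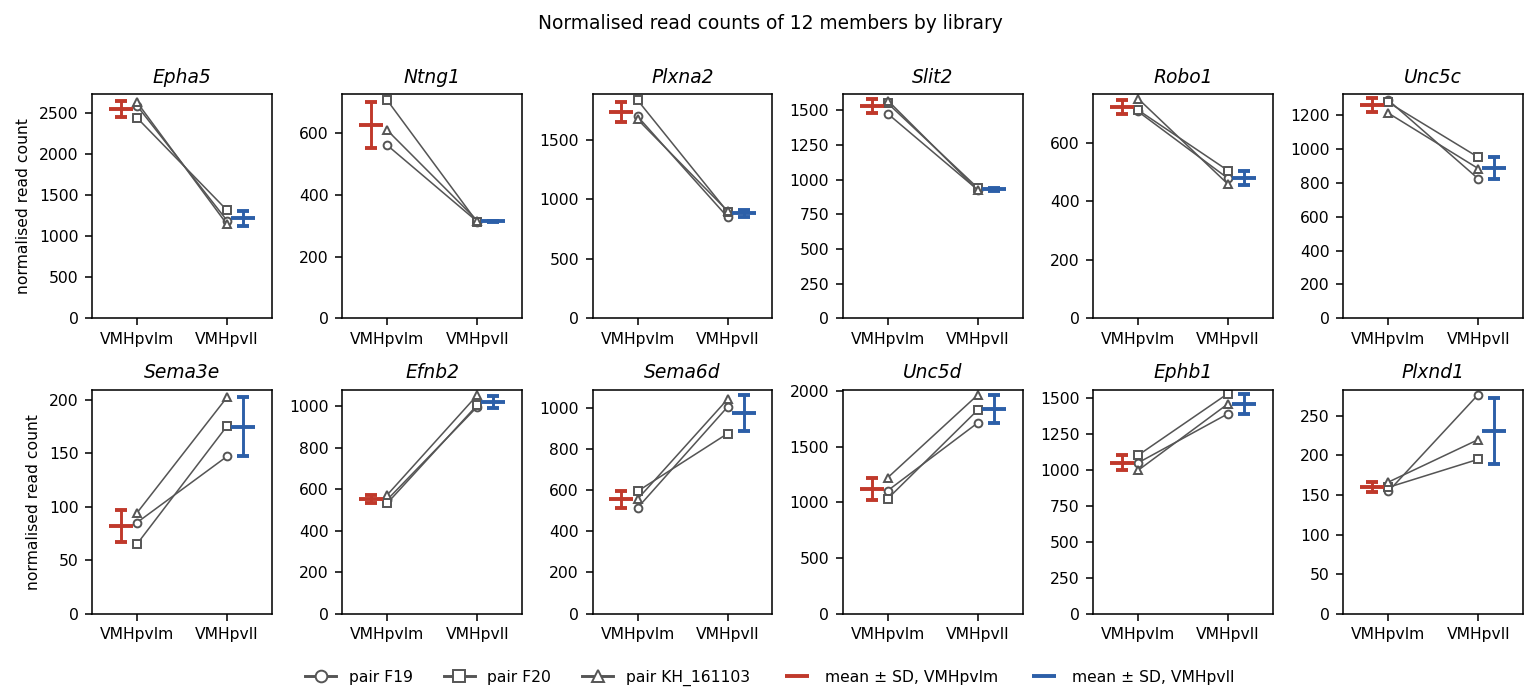
Normalised read counts of 12 called members in each library, with lines joining libraries of the same name and coloured bars for the mean and SD of 3 libraries. The upper row shows members higher in VMHpvlm and the lower row members higher in VMHpvll, and the libraries of the regions do not overlap in any of the 12 panels.

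Semaphorins, the largest group with 20 tested members, had 3 members higher in VMHpvlm and 6 higher in VMHpvll. Class 3 semaphorins, which are secreted, went both ways. Sema3e, the ligand of Plxnd1, had 85.3, 65.2 and 94.5 in VMHpvlm, against 147, 176 and 203 in VMHpvll. All VMHpvll libraries were above all VMHpvlm libraries, with a 2.15-fold higher mean (-1.10 ± 0.14, adjusted p = 7.04e-08). Sema3a, which signals through neuropilin-1 and plexin-A receptors, had 251, 217 and 249.8 in VMHpvlm, against 178, 168 and 174 in VMHpvll (0.46 ± 0.11, adjusted p = 0.00151). By DESeq2 the adjusted p of Sema3a was 0.0973, and by limma without trend or robust it was 0.0705. Sema3d, which also binds neuropilin, had 116, 118 and 153 in VMHpvlm, against 81.3, 98.3 and 107 in VMHpvll (0.43 ± 0.15, adjusted p = 0.0284). The Sema3d libraries lay apart by less than those of Sema3a, and its adjusted p was 0.143 without the F19 pair and 0.225 without the KH_161103 pair. Sema3c and Sema3f had higher values in all VMHpvlm libraries than in any VMHpvll library but were not called (differences 0.25 and 0.44, adjusted p = 0.0559 and 0.108). Without the F20 pair both passed, with adjusted p = 0.00615 for Sema3c and 0.0469 for Sema3f. Sema3b and Sema3g had levels of 62.5 or less and overlapping ranges.

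The membrane-bound semaphorins were mostly higher in VMHpvll where limma called them. By DESeq2, Sema5b, Sema4d, Sema7a and Sema6a were not called. Sema6d, a transmembrane ligand of Plxna1, had 513, 594 and 556 in VMHpvlm, against 1004, 874 and 1041 in VMHpvll. The regions were well separated, at 1.76-fold (-0.81 ± 0.068, adjusted p = 1.26e-12). Sema5b, a ligand of Plxna1 and Plxna3, had 50.1, 65.2 and 71.8 in VMHpvlm, against 79.1, 99.8 and 107 in VMHpvll (-0.61 ± 0.17, adjusted p = 0.0076). Without the KH_161103 pair the adjusted p of Sema5b was 0.0697. Sema4d, the ligand of Plxnb1, had 362, 394 and 391 in VMHpvlm, against 484, 471 and 496 in VMHpvll (-0.34 ± 0.078, adjusted p = 0.00104). By DESeq2 the adjusted p of Sema4d was 0.0652, and by limma without trend or robust it was 0.106. Sema7a, a membrane-anchored ligand of Plxnc1, had 138, 130.5 and 171 in VMHpvlm, against 187, 176 and 212 in VMHpvll (-0.39 ± 0.12, adjusted p = 0.0145). The KH_161103 library was the highest in each region, and without the pair block the adjusted p of Sema7a was 0.0668. Sema6a, a ligand of Plxna2 and Plxna4, had 721, 776 and 800.2 in VMHpvlm, against 849, 827 and 935 in VMHpvll, with the smallest difference of the called semaphorins (-0.18 ± 0.060, adjusted p = 0.024, and 0.126 without the pair block).

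Sema4f was the exception among the membrane-bound semaphorins, with a call toward VMHpvlm. It had 471, 457 and 419.6 in VMHpvlm, against 339, 331 and 318 in VMHpvll (0.45 ± 0.082, adjusted p = 3.81e-05), and the difference was between 0.40 and 0.48 in the 3 pairs. Sema5a, the semaphorin with the highest count among those not called, had 1430.3, 1385 and 1436 in VMHpvlm, against 1325, 1513 and 1662 in VMHpvll. The VMHpvll libraries of Sema5a spread on both sides of those of VMHpvlm (adjusted p = 0.365, and 0.0485 without the F19 pair). Sema6b had a difference of 0.14 (adjusted p = 0.113, and 0.0227 without the F20 pair). Sema4a, Sema4b, Sema4c, Sema4g and Sema6c were not called, with differences between -0.28 and 0.01.

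Of 9 tested plexins 2 were higher in VMHpvlm, both of class A, and 3 were higher in VMHpvll, 1 each of classes B, C and D. Plxna2, a receptor for class 6 semaphorins and, with neuropilins, for class 3 semaphorins, lies on chromosome 1 from 194618218 to 194816869 (mm10). It had 1697, 1834 and 1672 in VMHpvlm, against 851, 895 and 902 in VMHpvll. This 1.97-fold difference was far larger than the spread within either region (0.97 ± 0.052, adjusted p = 2.13e-19). Plxna1 had 2669.6, 2693 and 2825 in VMHpvlm, against 2059, 2352 and 2258 in VMHpvll, a smaller difference without overlap (0.30 ± 0.043, adjusted p = 4.73e-07). The exons of Plxna1 overlap Gm26811 on the opposite strand over 10.7% of their length. Plxna4 had 2385, 2387 and 2423 in VMHpvlm, against 2343, 2699 and 2458 in VMHpvll, and was not called (adjusted p = 0.414), nor was Plxna3 (difference 0.09).

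Plxnd1, the receptor of Sema3e, had 154, 159.6 and 166 in VMHpvlm, against 277, 195 and 220.0 in VMHpvll (-0.51 ± 0.12, adjusted p = 0.00099). The F19 pair had the largest difference, at -0.84, with -0.29 in F20 and -0.40 in KH_161103. Without the F19 pair the adjusted p of Plxnd1 was 0.0918. Plxnc1, the receptor of Sema7a, had 1209.5, 1129.9 and 1079 in VMHpvlm, against 1475, 1214 and 1253 in VMHpvll (-0.20 ± 0.053, adjusted p = 0.00371, and 0.092 without the pair block). Plxnb1, the receptor of Sema4d, had 905, 748 and 826 in VMHpvlm, against 969.5, 913 and 887 in VMHpvll. Its ranges overlapped, and the call rested on the pairs (-0.16 ± 0.060, adjusted p = 0.0452, and 0.203 without the pair block). Plxnb2 and Plxnb3 were not called, with differences of 0.07 and -0.07. Of ligands and receptors set side by side after their values were seen, Sema3e and Plxnd1, Sema7a and Plxnc1, and Sema4d and Plxnb1 were each called toward VMHpvll. In 3 other such pairs the ligand was called toward VMHpvll and the receptor toward VMHpvlm, namely Sema6d and Plxna1, Sema5b and Plxna1, and Sema6a and Plxna2. By DESeq2, Plxnd1, Plxnc1, Plxnb1, Sema7a, Sema4d, Sema5b and Sema6a were not called. Pairs with an uncalled receptor, such as Sema6a and Plxna4 or Sema5b and Plxna3, were not set side by side. Class 3 semaphorins and plexin-A receptors, which act with neuropilins, were left out as well. Among them, Sema3a, Sema3d, Plxna1 and Plxna2 were all called toward VMHpvlm, though Sema3a and Sema3d were not called by DESeq2.

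Slits and Robos were higher in VMHpvlm where they were called, apart from Robo4. Slit2, a secreted repellent, had 1475, 1550.4 and 1570.4 in VMHpvlm, against 926, 939.7 and 923 in VMHpvll. The VMHpvll libraries lay close together, far below those of VMHpvlm, and the VMHpvlm mean was 1.65-fold higher (0.72 ± 0.052, adjusted p = 4.82e-15). Slit1, the family member of the nervous system, had 1751, 1664 and 1850.1 in VMHpvlm, against 1288, 1467 and 1406 in VMHpvll (0.34 ± 0.051, adjusted p = 8.88e-07). Their receptors moved the same way. Robo1 had 707, 712 and 751 in VMHpvlm, against 478, 505 and 458 in VMHpvll (0.59 ± 0.069, adjusted p = 4.22e-09). Robo2 had 730.0, 799.5 and 833 in VMHpvlm, against 501, 553 and 499 in VMHpvll (0.60 ± 0.067, adjusted p = 1.13e-09). Neither receptor overlapped between the regions, and both were about 1.5-fold higher in VMHpvlm (1.51-fold and 1.52-fold). Slit3 had 456, 490.0 and 418 in VMHpvlm, against 406, 441 and 491 in VMHpvll, with no call (adjusted p = 0.859).

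Robo4, the endothelial member of the family, was the exception, with 20.3, 6.94 and 18.2 in VMHpvlm, against 29.7, 29.8 and 47.5 in VMHpvll. The difference of -1.27 ± 0.32 (adjusted p = 0.00277) was the largest of the called members toward VMHpvll, but it rested on as few as 5 reads in a library, and without the KH_161103 pair its adjusted p was 0.0656. Robo3, known from the crossing of axons at the midline, had between 4 and 14 reads per library, a difference of 0.80 ± 0.45 and was not called (adjusted p = 0.242).

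In the netrin system the receptors Unc5c and Unc5d went in opposite directions, while netrins and Dcc were not called. Ntng1, netrin-G1, which is anchored in the membrane of axons and binds Lrrc4c rather than Dcc, had 561, 707 and 609 in VMHpvlm, against 313, 311 and 317 in VMHpvll. The gene lies on chromosome 3 from 109780040 to 110144011 (mm10) and was 1.99-fold higher in VMHpvlm (0.99 ± 0.080, adjusted p = 1.61e-13). The VMHpvll libraries were almost equal, and the lowest VMHpvlm library was far above them. Unc5c, a receptor for netrin-1 that mediates repulsion, had 1289, 1276 and 1213 in VMHpvlm, against 824, 952 and 885 in VMHpvll (0.51 ± 0.056, adjusted p = 9.46e-10). Unc5d, a member of the same family that also binds Flrt2, had 1107, 1034 and 1223 in VMHpvlm, against 1716, 1832 and 1967 in VMHpvll. It lies on chromosome 8 from 28646717 to 29219636 (mm10), and its difference of -0.71 ± 0.050 (adjusted p = 2.12e-15) had the same sign in each pair (-0.63, -0.82 and -0.69). Unc5b, which is also a receptor of vessels, had 96.2, 128 and 96.3 in VMHpvlm, against 208, 158 and 163 in VMHpvll, without overlap (-0.72 ± 0.14, adjusted p = 9.82e-05). Unc5a had 837, 815 and 859 in VMHpvlm, against 839.8, 859 and 872 in VMHpvll, without a call (adjusted p = 0.76). Dcc, the netrin receptor that mediates attraction, had 362, 364 and 388 in VMHpvlm, against 352, 383 and 425 in VMHpvll (adjusted p = 0.722). Ntn1, Ntn4 and Ntng2 were not called, with differences of -0.10, -0.11 and -0.06, and Ntn5 was below the level tested.

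Per length of exon, Plxna1 and Slit1 were the most abundant members. Counts were divided by the length of all annotated exons of each gene in GENCODE M21, since the annotation used for counting is not given in the sources used here. Plxna1 reached 301 ± 9.24 per kb in VMHpvlm and 246 ± 16.5 in VMHpvll (SD, n = 3 each), and Slit1 reached 296 ± 15.7 in VMHpvlm and 234 ± 15.3 in VMHpvll, which did not differ beyond their spread within a region. Efnb3, Unc5a, Sema6b, Ephb1, Plxna4 and Unc5d followed, with means over both regions between 160 and 212 per kb. The order changed between the regions in places. Epha5 (153 per kb) stood above Efnb2 (80.5 per kb) in VMHpvlm, and Efnb2 (149 per kb) stood above Epha5 (72.7 per kb) in VMHpvll. Unc5d (122 per kb) exceeded Unc5c (65.8 per kb) in VMHpvlm, and the gap was wider in VMHpvll (199 against 46.4 per kb). The median member had 37.5 per kb, and Epha3, Robo3, Epha2, Epha1 and Efna4 were the lowest, all under 2.02 per kb in VMHpvlm.

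**Figure D3:**
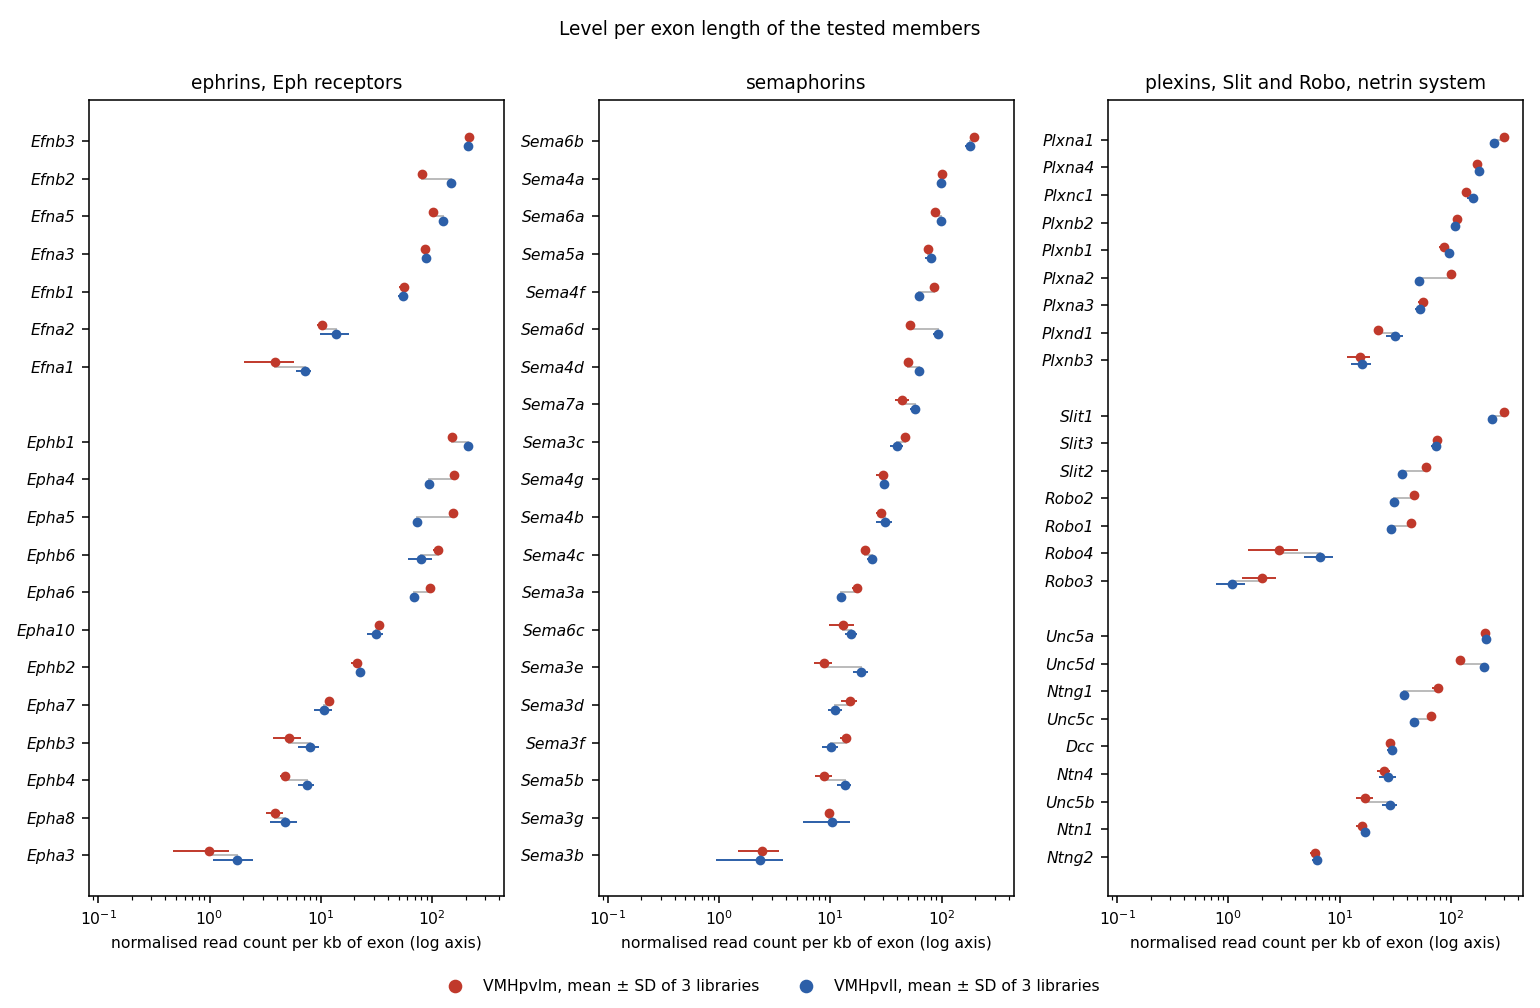
Normalised read count per kb of exon on a log axis for the 64 tested members, as mean and SD of 3 VMHpvlm libraries (red) and 3 VMHpvll libraries (blue). Plxna1 and Slit1 lie at the right in both regions, and the gaps between red and blue points are among the widest of the called members for Robo4, Sema3e, Epha5, Ntng1 and Plxna2.

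Members that neighbour each other on a chromosome did not always share a direction. With gaps under 1 Mb there were 11 neighbouring pairs. Robo1 and Robo2, on opposite strands of chromosome 16 with a gap of 846 kb, were both higher in VMHpvlm. On chromosome 5, Sema3d (12383385 to 12588948), Sema3a (13125414 to 13602565) and Sema3e (14025276 to 14256689) lie in a row on the plus strand (mm10). Sema3d and Sema3a were higher in VMHpvlm, and Sema3e, 423 kb beyond Sema3a, was higher in VMHpvll. Robo4 and Robo3 end 0.553 kb apart on chromosome 9 in opposite orientation, with differences of -1.27 and 0.80, of which only that of Robo4 was called. Exons of 17 of the 68 members overlap exons of another gene, and the use of strand in counting is not given in the sources used here.

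The partners of these proteins outside the families were examined from a list of 26 coreceptors and binding proteins, of which 25 were tested. Of these, 4 were higher in VMHpvlm and 9 in VMHpvll, with a median difference of -0.11. The shares over all genes tested were 10.5% and 9.48% in that order, and 25.4% in either direction for genes with a mean of at least 100. Nrp1, neuropilin-1, the binding subunit for Sema3a, had 183, 187 and 149.9 in VMHpvlm, against 441, 390.2 and 419 in VMHpvll (-1.26 ± 0.10, adjusted p = 7.1e-14). It was 2.40-fold higher in the region where Sema3a, Plxna1 and Plxna2 were lower, while Plxna3 and Plxna4 were not called. Nrp2 averaged 2202 ± 211 in VMHpvlm and 2998 ± 468 in VMHpvll (SD, n = 3 each), a difference of -0.44 without overlap of the regions (adjusted p = 4.11e-09). Toward VMHpvll the list also held the receptor tyrosine kinases Met (-2.02, at no more than 28.6 counts) and Kdr (-0.95), and the adhesion molecule Dscaml1 (-0.90). Kdr is also counted among the vascular markers below. Toward VMHpvlm it held Lrrc4 (0.45), which binds netrin-G2, and the adhesion molecules Chl1 (0.43), Nrcam (0.17) and Cntn1 (0.15). Lrrc4c, the partner of Ntng1, averaged 716 in VMHpvlm and 724 in VMHpvll, without a call (adjusted p = 0.905).

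Intracellular mediators of guidance signals were also divided. The list held 46 genes, all tested, with 11 called toward VMHpvlm and 12 toward VMHpvll and a median difference of -0.05. Among all genes tested the shares were 10.5% and 9.48% in that order, and 25.4% in either direction at a mean of at least 100. Many listed genes have high counts, where small differences are called, such as 0.11 for Dpysl2. Mical2, of a family of actin-oxidising enzymes that act below plexins, had the largest difference, with 2014, 1821 and 1962 in VMHpvlm, against 3835, 3458 and 3795 in VMHpvll (-0.94 ± 0.040, adjusted p = 1.6e-22). Vav2, an exchange factor used by Eph receptors, had a difference of -0.62, Limk1, a kinase of the actin regulator cofilin, of -0.44, and Mical1 of -0.44. In the other direction, the kinase Rock2 (0.46), the EphA-linked exchange factor Ngef (0.43) and Chn1, a Rac inhibitor that acts below Epha4 (0.29), were higher in VMHpvlm.

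Markers of several cell types, though not of microglia, differed between the regions, and their part in the differences above was not tested. For comparison, 10.5% of all genes tested were called higher in VMHpvlm and 9.48% higher in VMHpvll. Of 6 neuronal markers, 4 were called higher in VMHpvlm and 0 in VMHpvll, with summed counts between 28012 and 30226 in VMHpvlm and between 24257 and 26428 in VMHpvll. Most of this gap came from Snap25, which averaged 10260 in VMHpvlm and 7275 in VMHpvll. Slc17a6 (-0.09) and Tubb3 (-0.10) leaned the other way, without a call. All 3 markers of GABAergic neurons were higher in VMHpvll, with sums between 798 and 1054 in VMHpvlm and between 1991 and 2306 in VMHpvll. Of 10 oligodendrocyte markers 9 were called higher in VMHpvll, with sums between 11972 and 13697 in VMHpvlm and between 16138 and 17374 in VMHpvll. Of 7 markers of their precursors 5 were called higher in VMHpvll (1722 to 1999 in VMHpvlm, 2128 to 2325 in VMHpvll), and of 9 astrocyte markers 4 (29645 to 31874 in VMHpvlm, 34750.4 to 39897 in VMHpvll). Most of the astrocyte gap came from Slc1a2, which averaged 19440 in VMHpvlm and 24860 in VMHpvll. Aldoc leaned the other way (0.06), and Slc1a3, Aldh1l1, Gja1 and Fgfr3 were not called either. Of 9 microglia markers 0 were called by limma, with sums of 1233 to 1343 in VMHpvlm and 1315 to 1469.7 in VMHpvll. Of 5 tested tanycyte and ependymal markers 2 were called higher in VMHpvll (273 to 389 in VMHpvlm, 503 to 712 in VMHpvll). No listed marker was at 0 in any library except Rax, a tanycyte gene.

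Some members are also expressed by vessels. Of 10 vascular markers 6 were called higher in VMHpvll and 0 in VMHpvlm, with sums between 1893 and 2149 in VMHpvlm and between 2681 and 2917 in VMHpvll. The part of vessels in the differences of Robo4, Plxnd1, Unc5b, Ephb4 and Efnb2 was not tested. These genes are examples picked without a rule, not a full list of members with roles in vessels. All of them leaned toward VMHpvll, and this shared direction cannot be extended to other members.

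**Figure D4:**
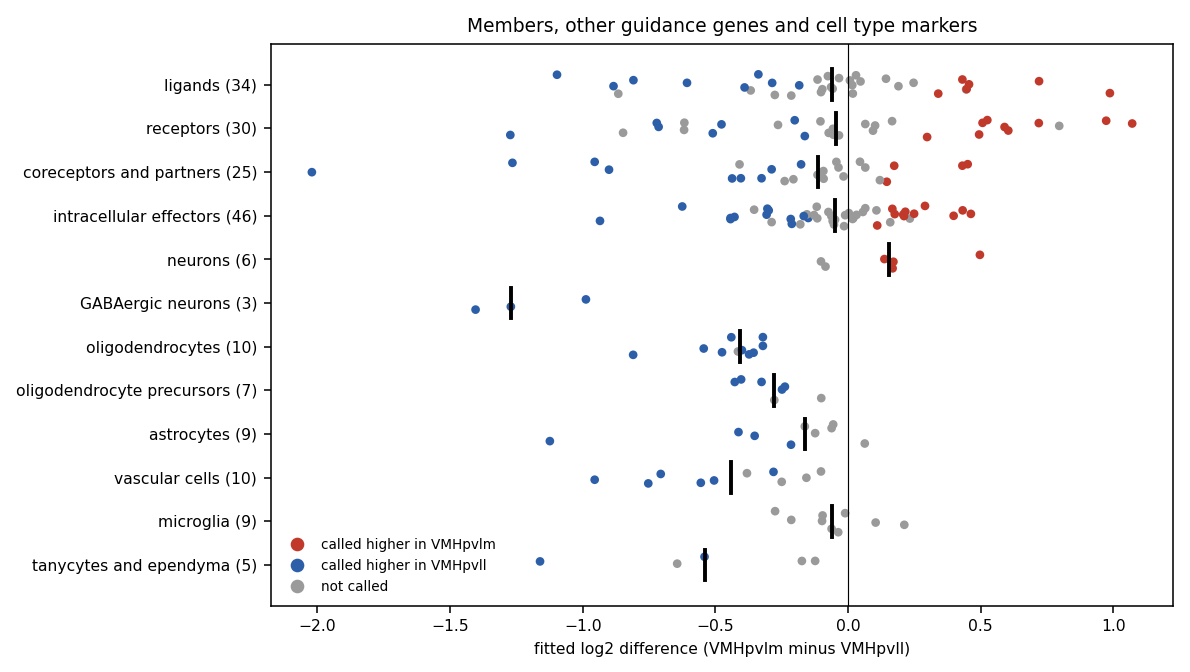
Log2 difference from the fit, VMHpvlm minus VMHpvll, for the tested ligands and receptors, of their partners and intracellular mediators, and of cell type markers, with gene numbers in brackets and the median of each list drawn in black. Red points were called toward VMHpvlm, blue points toward VMHpvll and grey points in neither direction. Ligands and receptors spread to both sides of 0, whereas called oligodendrocyte, astrocyte and vascular markers lie only on the VMHpvll side.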

How the data were processed

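The deposited table held a normalised signal for 47480 genes in 6 libraries, which the authors had made from gene counts by a scaling factor for each library. The values show this: 100% of those above 0 came out as whole reads, within 0.05 reads. The submitters' processing notes list HISAT2, featureCounts and mm10. No annotation, strand setting or scaling tool is given in the sources used here.

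Region was tested with limma 3.58.1 (R 4.3.3, trended and robust eBayes, library name as a block) after a log2(value + 1) transform, over 14522 genes whose mean reached 10. Tests were two-sided with Benjamini-Hochberg adjustment over all genes tested. With 2 residual degrees of freedom and a median of 39.9 prior ones, p-values depend mostly on a spread pooled across genes of like level. The log2(value + 1) scale understates changes of low genes.

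Names were taken as pairs from the outset, because the rule for the members asks for it. Earlier work on these data had also found that same-named libraries deviate together, so the correlations given next are no separate check. Deviations from the region means correlated at 0.244 to 0.363 between same-named libraries and at -0.247 to 0.007 between others. Such deviations cancel within a region, so these ranges are not independent of each other. No label ties a name to 1 animal, and p-values therefore cover the variation among these libraries, which may be technical. Within a region, libraries differed beyond sampling noise (chi-square per degree of freedom 5.49 to 9.89). The limma step was tested on simulated data.

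Members and lists were chosen with earlier results of these data known. All members are accounted for. Values of every library are given for up to 15 called members in each direction and for the uncalled member with the highest mean in each of 6 systems (and for Dcc and Nrp1, chosen after their values were seen). Of each list of partners and mediators, up to 4 called genes per direction are named (1 that the rule names is not reported here), besides Nrp2 and Lrrc4c, chosen likewise. Gene positions and exon lengths came from GENCODE M21 (mm10), and start windows from RefSeq (GRCm38.p6). Alternatives included edgeR 4.0.16 (quasi-likelihood) and DESeq2 1.42.0 on the recovered reads.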

Additional observations from a re-analysis of the deposited data

How the results depend on the processing

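All 30 called members kept their direction under each of the 13 alternatives that gave a value (Robo4 had none with a mean of at least 50), and 7 of them (Efnb2, Epha4, Epha5, Ntng1, Plxna2, Slit2 and Unc5d) kept their call under all of them. Pseudocounts of 0.5 and 5 and edgeR on the recovered reads called the same 30 members as limma. Without the pair block, 14 members were called higher in VMHpvlm and 11 in VMHpvll, against 937 and 863 over all genes. Sema3d, Plxnb1, Plxnc1, Sema6a and Sema7a lost their calls. With a variance prior without trend or robust, the counts were 6 in VMHpvlm and 3 in VMHpvll, as calls over all genes went to 189 and 233, and the 7 members above, Sema5b and Robo3 were called. DESeq2 called 13 members in VMHpvlm and 6 in VMHpvll, against 648 and 582 over all genes, and lost Efna5, Plxnb1, Plxnc1, Plxnd1, Robo4, Sema3a, Sema3d, Sema4d, Sema5b, Sema6a and Sema7a. Leaving out a pair gave between 14 and 18 calls in VMHpvlm and between 8 and 14 in VMHpvll, the lowest without KH_161103. Over all genes the calls were 1136 and 1005 without F19, 1511 and 1361 without F20, and 935 and 838 without KH_161103. Without F19, Plxnb1, Plxnc1, Plxnd1, Sema3d, Sema6a and Sema7a lost their calls and Ephb3 and Sema5a gained one. Without F20, Plxnb1 lost its call and Sema3c, Sema3f and Sema6b gained one. Without KH_161103, Efna5, Plxnb1, Plxnc1, Robo4, Sema3d, Sema5b, Sema6a and Sema7a lost theirs. The loss of calls has no tested cause, apart from fewer libraries where a pair was left out. Differences that changed sign belonged to members that were called neither before nor after. With libraries scaled to the same upper quartile, Efnb1, Efnb3 and Sema4a came to -0.007, -0.009 and -0.017. Leaving out each pair gave ranges of -0.136 to 0.031 for Efna3, -0.055 to 0.157 for Efnb1, -0.037 to 0.06 for Efnb3, -0.077 to 0.194 for Epha10, -0.222 to 0.017 for Ntn1, -0.148 to 0.04 for Ntng2, -0.098 to 0.003 for Plxna4, -0.147 to 0.045 for Plxnb3, -0.045 to 0.354 for Sema3b, -0.367 to 0.27 for Sema3g, -0.024 to 0.045 for Sema4a, -0.158 to 0.054 for Sema4g, -0.453 to 0.017 for Sema6c and -0.04 to 0.161 for Slit3. No alternative scaling moved the median of all genes by more than 0.026. Depth limits Robo3, Robo4, Epha3, Epha8, Efna1 and Sema3b, which had 11 or fewer reads in a library.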
